A study of Mus musculus with 16 samples.

Results

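The regions compared here are those bound by Med26 and those bound by Cdk8 in the same kind of cell, neural progenitor cells transfected with a control siRNA. Each deposited list held windows of 50 bp in which an antibody had enriched DNA by chromatin immunoprecipitation with sequencing (ChIP-seq). Listed windows up to 200 bp apart were merged, which gave 5990 Med26 regions and 5574 Cdk8 regions, 11564 of the 605681 regions of all 9 ChIP libraries of the series. A region was called shared when it had at least 1 bp in common with a region of the other factor, and factor-only otherwise. The signal of a region was that of its highest window, its summit, and signals were ranked only within a file.

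The cells were made from the V6.5 line of mouse embryonic stem cells by way of embryoid bodies kept for 4 days. They had received an siRNA against luciferase, a gene that mouse cells lack, 72 hours before harvest, and were fixed with 1% formaldehyde. RNA polymerase II (Pol II) was mapped after the same control siRNA, Med26, Cdk8 and Pol II after an siRNA against the heterochromatin protein Cbx3, and Pol II and Cbx3 (sets 1 and 2) in untreated cells. Cbx3 had 2 libraries and every other target had 1 per treatment, so no difference between Med26 and Cdk8 has a replicate check, and the intervals below are exact 95% binomial intervals that cover counting error only. Med26 had an input sample of its own in the labels, so factor, antibody, input and library cannot be told apart. Whether the cells held neural progenitor markers was not analysed here, since the lists measure binding and no annotation of their genome build (mm9) was used. A lower signal in such bulk samples can mean fewer bound cells or less binding per cell.

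Mediator is the large coactivator complex that carries signals from transcription factors at enhancers and promoters to Pol II. Med26 is a subunit found with the core complex when it is associated with Pol II, and it can bring in factors that help Pol II to elongate. Cdk8 is the kinase of a detachable module, with cyclin C, Med12 and Med13, and in purified preparations Mediator tends to hold either this module or Med26 with Pol II.

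Med26 and Cdk8 were rarely listed at the same base pairs. Of the Med26 regions, 155 of 5990 overlapped a Cdk8 region (2.59%, interval 2.20 to 3.02%). Of the Cdk8 regions, 154 of 5574 overlapped a Med26 region (2.76%, interval 2.35 to 3.23%). Window by window, 224 windows stood in both lists, 1.44% of the Med26 windows and 2.25% of the Cdk8 windows. Both lists ended at nearly the same lowest signal, 6.005 for Med26 and 6.008 for Cdk8, and a window absent from a list can hold signal just below that value. Lists of the same factor also overlapped little. Med26 of the Cbx3 siRNA arm overlapped 8.61% of the Med26 regions, and Cdk8 of that arm 11.4% of the Cdk8 regions. Those lists came from another siRNA and had other lengths, so they give only a rough scale for the overlap between factors.

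Many more regions lay beside the other factor than on it. A further 653 Med26 regions (10.9%, interval 10.1 to 11.7%) had a Cdk8 region 1 bp to 1 kb away, where 1 bp means that the regions adjoin. With the overlaps, this made 808 Med26 regions within 1 kb of Cdk8, or 13.5% of the list. The reverse count was 572 Cdk8 regions at 1 bp to 1 kb (10.3%, interval 9.48 to 11.1%), and 726 within 1 kb with the overlaps, or 13%. The neighbours were close ones. For Med26 the nearest Cdk8 region lay at up to 200 bp in 355 non-overlapping regions, beyond that and up to 400 bp in 151, up to 600 bp in 79 and up to 1000 bp in 68. The whole next kilobase added 62. Cdk8 regions fell off in the same order, with 348, 117, 56 and 51 regions up to 1 kb and 59 in the next kilobase.

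Beyond this narrow zone the factors were far apart. Between 1 and 10 kb lay 418 Med26 and 381 Cdk8 regions, while 2395 Med26 regions (39.98%) and 1873 Cdk8 regions (33.6%) were 10 to 100 kb from the other factor. The median distance to the nearest region of the other factor was 65.9 kb for Med26 (quartiles 16.7 and 170.1 kb) and 82.7 kb for Cdk8 (quartiles 18.4 and 294.1 kb). Over 100 kb away were 2369 Med26 regions (39.6%, interval 38.3 to 40.8%) and 2594 Cdk8 regions (46.5%, interval 45.2 to 47.9%). The latter include 5 Cdk8 regions on chromosome Y, where no Med26 was listed.

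Where the factors were neighbours, most summits stood to the side of each other, and where they overlapped, most lay close. Among the 726 Cdk8 regions within 1 kb of Med26, 30 had the same summit window as Med26, 150 had it 50 to 100 bp away, 208 at 150 to 200 bp, 131 at 250 to 300 bp and 65 at 350 to 400 bp. The median offset was 200 bp, and 55.7% of the pairs were 150 to 400 bp apart against 24.8% at 100 bp or less. Of these 726 regions 572 do not overlap Med26 and so cannot share its summit window. The 154 overlapping ones had a median of 100 bp, with 67.5% at 100 bp or less and 29.2% at 150 to 400 bp. Over all regions within 1 kb, the same measure between Med26 and the nearest control Pol II region gave a median of 100 bp (5148 pairs, 53.6% at 100 bp or less). Cdk8 and Pol II summits were a median of 150 bp apart (1608 pairs, 36.9% at 100 bp or less). Cdk8 summits of the 2 siRNA arms were a median of 50 bp apart (889 pairs, 76.9% at 100 bp or less), and Med26 summits of the arms 100 bp (892 pairs, 60.8%). Over regions within 1 kb, the Med26 to Cdk8 median was thus above both of these. The 100 bp median at overlapping regions has no counterpart here, since overlapping regions of the same factor were not measured by themselves.

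Listed windows were then counted around all summits, with no pairing of regions. Around 5990 Med26 summits, Cdk8 was listed in the summit window itself at 73 (1.22%, interval 0.956 to 1.53%). The share was 1.53% at 100 bp and 2.05% at 200 bp (245 of 11980 positions on both sides, interval 1.80 to 2.31%), and then fell to 1.34% at 300 bp, 0.626% at 500 bp and 0.150% at 1000 bp. Cdk8 was therefore listed 1.68 times as often at 200 bp from a Med26 summit as on it. The Cdk8 library of the Cbx3 siRNA arm, which was not used to choose any region, had 1.69% at the Med26 summit (interval 1.38 to 2.05%) and 2.47% at 200 bp (interval 2.20 to 2.77%). Turned around, Med26 was listed at 1.74% of the 5574 Cdk8 summits (interval 1.41 to 2.12%) and at 2.44% of the positions 200 bp away (interval 2.16 to 2.74%). The shorter Med26 list of the Cbx3 siRNA arm did not show this beyond counting error. It had 0.287% on the Cdk8 summits (interval 0.164 to 0.466%) and 0.323% at 200 bp (interval 0.226 to 0.447%).

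**Figure D1:**
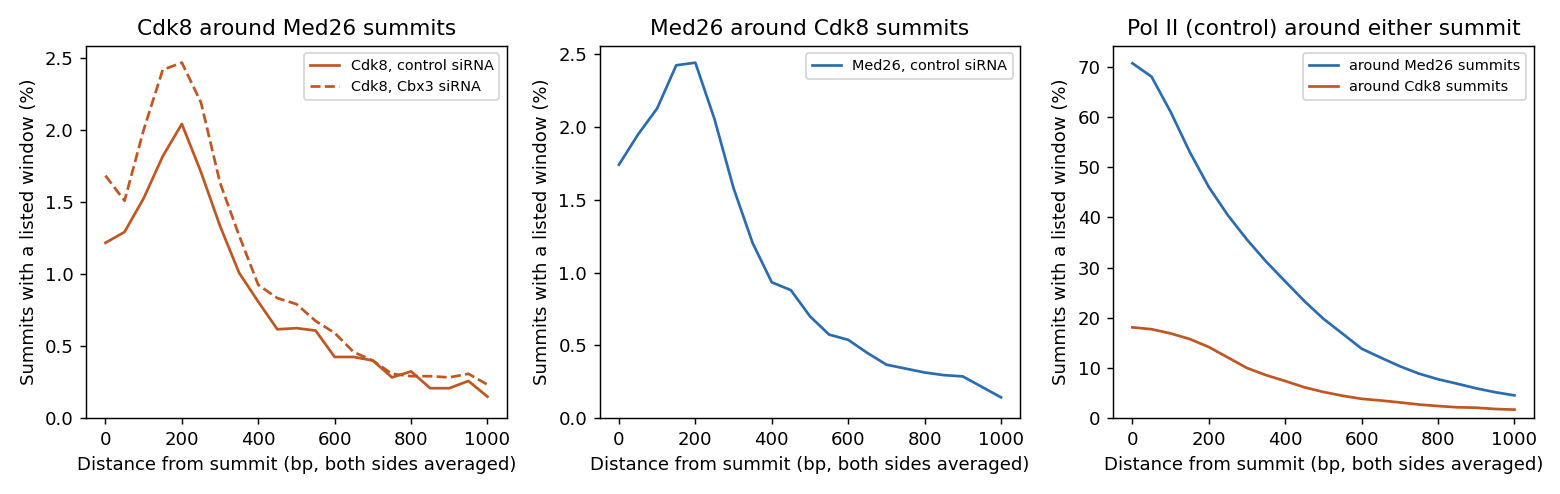
Share of summits (percent) with a listed window at each distance from the summit (bp, both sides averaged): Cdk8 around Med26 summits in both siRNA arms, Med26 around Cdk8 summits, and control Pol II around either. Cdk8 peaks at 200 bp from the Med26 summit (2.05% against 1.22% on it, and 2.47% against 1.69% in the Cbx3 siRNA arm), while Pol II is highest on the Med26 summit (70.7%).

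Pol II and Med26 of the other arm were listed most often on the Med26 summit itself. Control Pol II was listed at 70.7% of Med26 summits and 46.0% of positions at 200 bp, and Med26 of the Cbx3 siRNA arm at 5.53% and 0.634%. Around Cdk8 summits Pol II was listed at 18.1% on the summit and 14.2% at 200 bp. Of the signal classes counted, the highest Cdk8 decile had the largest ratio between 200 bp and the summit. In the highest decile of Cdk8 signal, Med26 was listed at 6 of 558 summits (1.08%, interval 0.396 to 2.33%) and at 4.84% of positions 200 bp away (interval 3.66 to 6.27%), and Pol II at 23.8% (interval 20.4 to 27.6%) and 29.9% (interval 27.2 to 32.7%). The ratio was near even at the strongest Med26 regions, where Cdk8 was listed at 2.84% of 599 summits, 3.26% of positions at 100 bp and 3.09% at 200 bp. How reads were extended into windows is not given in the sources used here, and its part in these offsets was not tested.

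A Pol II summit between those of Med26 and Cdk8 was the most frequent order, but not the order of most pairs. In 653 of 696 pairs with summits apart, the same control Pol II region was within 1 kb of both. Its summit fell between them in 269 pairs (41.2%, interval 37.4 to 45.1%), on the Med26 summit in 84 (12.9%) and on the Cdk8 summit in 49 (7.504%). It lay beyond Med26 in 126 pairs and beyond Cdk8 in 125. The Pol II summit was closer to Med26 in 374 pairs (57.3%, interval 53.4 to 61.1%) and closer to Cdk8 in 248 (37.98%, interval 34.2 to 41.8%), at medians of 100 bp from Med26 and 150 bp from Cdk8. Where 1 Pol II region overlapped both (509 pairs), its summit was between them in 39.7% (interval 35.4 to 44.1%). There it was closer to Med26 in 52.65% (interval 48.2 to 57.1%) and to Cdk8 in 41.45% (interval 37.1 to 45.9%), a weaker lean.

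Pol II marked most Med26 regions but few Cdk8 regions, and nearly every shared one. Control Pol II overlapped 4484 of 5990 Med26 regions (74.9%) and 1161 of 5574 Cdk8 regions (20.8%). Among shared regions it overlapped 150 of 155 for Med26 (96.8%, interval 92.6 to 98.9%) and 150 of 154 for Cdk8 (97.4%, interval 93.5 to 99.3%). Factor-only regions had it at 74.3% for Med26 (interval 73.1 to 75.4%) and 18.7% for Cdk8 (interval 17.6 to 19.7%).

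With distance from the other factor, Pol II dropped steeply at Cdk8 and slowly at Med26. Cdk8 regions at 1 bp to 1 kb from Med26 overlapped Pol II in 436 of 572 cases (76.2%, interval 72.5 to 79.7%), those at 1 to 10 kb in 15.7%, those at 10 to 100 kb in 16.4% and those farther away in 8.02%. For Med26 the shares in the same classes were 86.1%, 78.5%, 74.99% and 69.6%. Untreated cells gave a second, separate Pol II list. It overlapped 57.8% of shared and 26.6% of neighbouring Cdk8 regions, and 3.41%, 4.48% and 1.85% of those farther away. At Med26 it overlapped 64.5% of shared and 45.7% of factor-only regions.

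**Figure D2:**
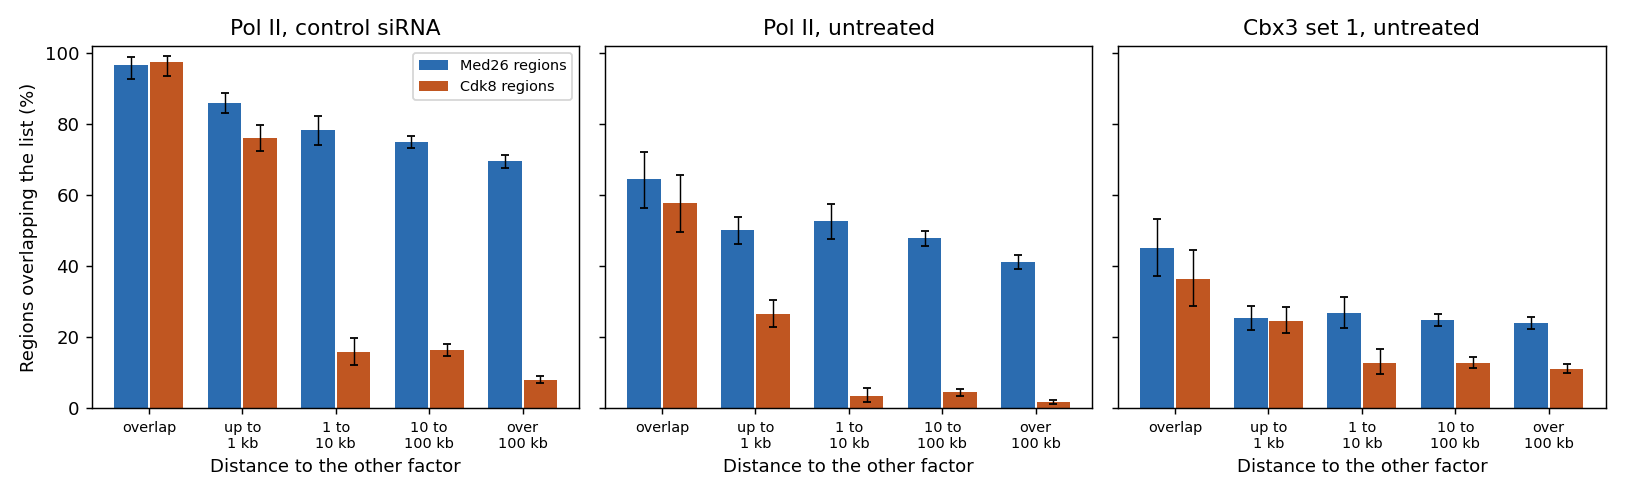
Share of Med26 and of Cdk8 regions (percent, bars with exact 95% binomial intervals) that overlap control Pol II, untreated Pol II or Cbx3 set 1, by distance to the other factor. Cdk8 regions drop from 97.4% with control Pol II where they overlap Med26 to 8.02% beyond 100 kb, while Med26 regions go from 96.8% to 69.6%.

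Shared regions also had higher signal, so the comparison was repeated within ranks. In deciles 1 to 5 of signal, all 34 shared Cdk8 regions overlapped control Pol II against 9.08% of the factor-only ones, and 31 of 33 shared Med26 regions (93.9%, interval 79.8 to 99.3%) against 56.7%. In deciles 6 to 10 the shares were 96.7% of 120 shared Cdk8 regions against 28.5%, and 97.5% of 122 shared Med26 regions against 92.4%. In the highest Med26 decile they did not differ beyond counting error, at 95.7% of 46 shared regions (interval 85.2 to 99.5%) and 97.8% of 553 others (interval 96.2 to 98.9%).

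Seen from Pol II, the factors overlapped each other at places with Pol II and almost nowhere else. Med26 regions with control Pol II overlapped Cdk8 in 3.34% of cases (interval 2.84 to 3.91%), and those without it in 5 of 1506 (0.332%, interval 0.108 to 0.773%). Cdk8 regions with Pol II overlapped Med26 in 12.9% (interval 11.04 to 14.99%), and 586 of 1161 (50.5%, interval 47.6 to 53.4%) lay within 1 kb of it. Without Pol II, 4 of 4413 Cdk8 regions overlapped Med26 (0.0906%, interval 0.0247 to 0.232%). Neighbours were found there more often, with 140 of these 4413 Cdk8 regions within 1 kb of Med26 (3.17%, interval 2.675 to 3.73%). Of the 1506 Med26 regions without Pol II, 96 lay within 1 kb of Cdk8 (6.375%, interval 5.19 to 7.73%). Of the 3966 Cdk8 regions with no Pol II within 1 kb, 13 had Med26 within 1 kb (0.328%, interval 0.175 to 0.560%).

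With the 16073 control Pol II regions as the unit, Med26 was on 4098 (25.5%) and Cdk8 on 1147 (7.14%). They shared 525, Med26 stood without Cdk8 on 3573, Cdk8 without Med26 on 622, and 11353 had neither. Cdk8 was on 12.8% of Pol II regions with Med26 (interval 11.8 to 13.9%) and on 5.19% of those without (interval 4.803 to 5.61%). The size of this difference varied with Pol II signal. In the highest Pol II decile Cdk8 was on 14.6% with Med26 (interval 12.47 to 16.9%) and 12.98% without (interval 10.4 to 15.9%), and in decile 9 on 11.6% and 11%. In decile 8 it was on 15.6% (interval 13.04 to 18.5%) against 8.99% (interval 7.19 to 11.1%), in decile 7 on 13.3% (interval 10.6 to 16.3%) against 8.75% (interval 7.09 to 10.6%), in decile 6 on 10.7% (interval 7.96 to 14.0%) against 7.55% (interval 6.11 to 9.21%), and in decile 5 on 10.4% (interval 7.06 to 14.7%) against 5.45% (interval 4.30 to 6.81%). The intervals with and without Med26 thus overlapped in deciles 6, 9 and 10 and stood apart in deciles 5 and 8, with those of decile 7 touching.

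Strong regions of a factor overlapped the other more often than weak ones, though not evenly. From the lowest to the highest decile of signal, Med26 regions overlapping Cdk8 went from 3 of 599 (0.501%, interval 0.103 to 1.46%) to 46 of 599 (7.68%, interval 5.68 to 10.1%). Cdk8 regions overlapping Med26 went from 1.08% in the lowest decile to 6.28% in decile 9 (interval 4.42 to 8.63%) and 4.66% in the highest (interval 3.07 to 6.75%). Wider regions have more room to overlap, and the mean region held 1.15 listed windows in the lowest Med26 decile and 5.18 in the highest, or 1.11 and 5.29 for Cdk8. Having the other factor beside it, at 1 bp to 1 kb, was as frequent at strong as at middling Med26 regions (10.2 to 13.9% in deciles 2 to 10). For Cdk8 this rose from 5.57% in the lowest decile to 20.8 and 20.1% in deciles 9 and 10.

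Strength in the one list said little of strength in the other. Over the 155 overlapping Med26 regions the ranks of both signals had a Spearman rho of 0.0661, given as a description with no test. Over the 224 windows in both lists rho was 0.213. Of these 155 regions, 8 were in the highest decile of both lists.

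Pol II divided the strong regions of the 2 factors differently. At Med26 the share with control Pol II climbed through every decile, from 35.2 to 97.7%, so that 585 of the 599 strongest regions had Pol II. At Cdk8 it reached 49.9% in decile 9 and was 40.3% in the highest. Thus 333 of the 558 strongest Cdk8 regions did not overlap control Pol II, and 204 of these had none within 1 kb. These 333 were seldom missing from the second Cdk8 library. Of them 283 were listed again under Cbx3 siRNA (85.0%), as were 172 of the 225 with Pol II (76.4%), against 633 of all 5574 Cdk8 regions (11.4%). Med26 was listed again at 516 of its 5990 regions (8.61%) and at 38.2% of its highest decile. The lists available for this differed in length: under Cbx3 siRNA there were 1745 Med26 and 6094 Cdk8 regions, so relisting is not comparable between the factors.

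**Figure D3:**
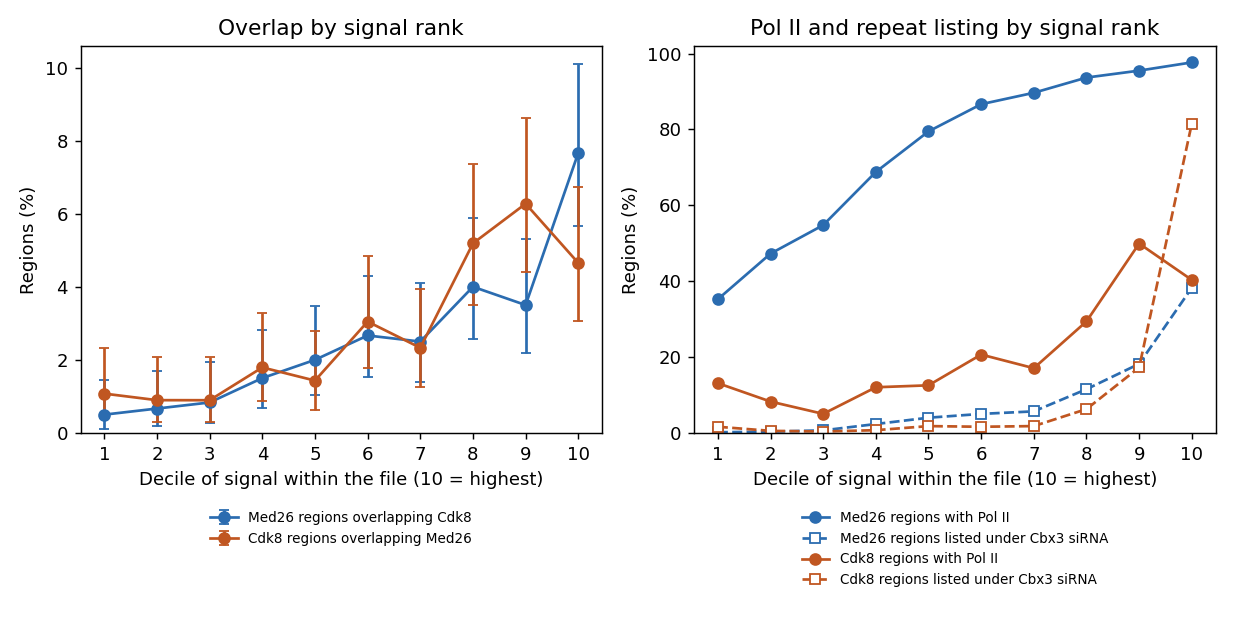
Regions by decile of signal within each file (10 is the highest): left, percent overlapping the other factor with exact 95% binomial intervals; right, percent with control Pol II and percent listed again under Cbx3 siRNA. The highest Cdk8 decile combines 40.3% with Pol II and 81.5% listed again, and the highest Med26 decile 97.7% and 38.2%, with 6094 Cdk8 but 1745 Med26 regions in the lists of the Cbx3 siRNA arm.

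The Cdk8 regions that were listed in both siRNA arms were also nearer to Med26. Of these 633 regions 35 overlapped Med26 (5.53%, interval 3.88 to 7.61%) and 173 lay within 1 kb (27.3%, interval 23.9 to 31.0%). Of the 4941 listed under control siRNA alone, 2.41% overlapped Med26 (interval 1.999 to 2.88%) and 11.2% lay within 1 kb (interval 10.3 to 12.1%). Control Pol II was on 45.5 and 17.7% of them. The relisted regions were mostly strong ones, since 455 of the 633 were in the highest Cdk8 decile. In that whole decile 4.66% overlapped Med26, 20.1% had it at 1 bp to 1 kb and 40.3% overlapped control Pol II. Signal rank and relisting were not separated in this comparison. Some neighbourhoods were found in both arms. Of the 653 Med26 regions with Cdk8 at 1 bp to 1 kb, 251 (38.4%) had a Cdk8 region of the Cbx3 siRNA arm within 1 kb. This held for 671 of the 5182 Med26 regions farther from control Cdk8 (12.9%). Within the Cbx3 siRNA arm itself, 35 of 1745 Med26 regions (2.01%) overlapped Cdk8 and 161 (9.23%) had it at 1 bp to 1 kb.

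Cbx3 was on a larger share of shared than of factor-only regions. Cbx3 set 1 overlapped 45.2% of shared Med26 regions (interval 37.2 to 53.4%) and 24.7% of Med26-only ones (interval 23.6 to 25.8%), and 36.4% of shared Cdk8 regions (interval 28.8 to 44.5%) against 13.2% (interval 12.4 to 14.2%). Regions overlapping both Cbx3 sets were 16 of 155 shared and 160 of 5835 other Med26 regions (10.3 and 2.74%), and 10 of 154 and 198 of 5420 Cdk8 regions (6.49 and 3.65%). Set 2 by itself overlapped 14.8% of shared Med26 regions (interval 9.645 to 21.4%) and 5.60% of the others (interval 5.03 to 6.225%). At Cdk8 its intervals overlapped, with 9.74% of shared regions (interval 5.555 to 15.6%) and 5.87% of the others (interval 5.26 to 6.53%). Within deciles 1 to 5, set 1 was on 10 of 33 shared Med26 regions (30.3%, interval 15.6 to 48.7%) and 18.4% of the others (interval 16.99 to 19.8%), within counting error, and on 8 of 34 shared Cdk8 regions (23.5%, interval 10.8 to 41.2%) against 5.96% (interval 5.10 to 6.91%). Within deciles 6 to 10 it was on 49.2% (interval 40.02 to 58.4%) against 31.1% (interval 29.5 to 32.9%) for Med26, and on 48 of 120 shared regions (interval 31.2 to 49.3%) against 20.8% (interval 19.2 to 22.4%) for Cdk8. In the highest Cdk8 decile the intervals overlapped, at 13 of 26 shared regions (29.9 to 70.1%) and 33.8% of the others (29.8 to 38.03%). Set 1 is the longest list of the series, with 923942 windows.

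Med26 regions were wider and Cdk8 regions mostly a lone window. Single windows made up 35.5% of Med26 and 63.4% of Cdk8 regions, and regions of 3 windows 14.7 and 4.63%. The mean region held 2.59 and 1.79 windows. The longest single region was a Cdk8 one of 3750 listed bp, on chromosome 17 from 39979951 to 39983700, against 900 bp for Med26. Regions of 10 or more windows were more frequent for Med26, at 82 (1.37%) against 44 for Cdk8 (0.789%). Shared regions were wider on both sides: 12.3% of shared and 36.2% of other Med26 regions were a single window, and 34.4 and 64.2% of Cdk8 regions. If the steps of the values are read as reads, a listed window had a median of 10.2 reads in Med26 and 6 in Cdk8, so that many Cdk8 windows rest on few reads.

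**Figure D4:**
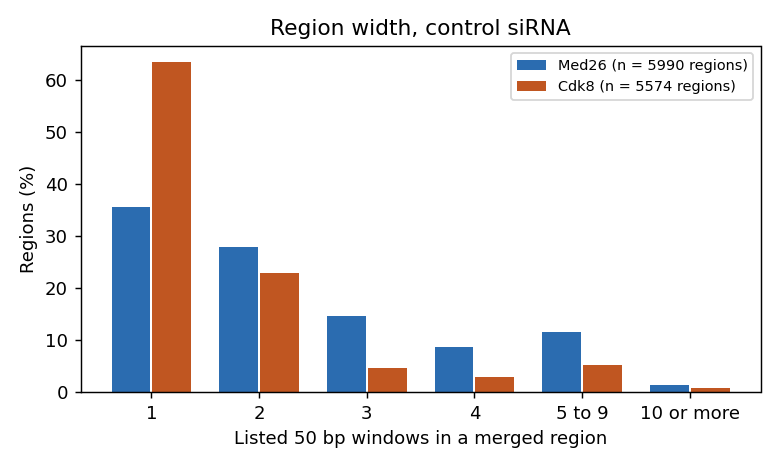
Share of merged regions (percent) by the number of listed 50 bp windows they hold, for 5990 Med26 and 5574 Cdk8 regions. Single windows are 35.5% of Med26 and 63.4% of Cdk8 regions, and the order is turned in every wider class.

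Along the chromosomes the factors followed Pol II to different degrees. Over the 2585 stretches of 1 Mb with a listed window of any library, the window counts of Med26 and Pol II had a rho of 0.863, those of Cdk8 and Pol II 0.639, and those of Med26 and Cdk8 0.595. These are descriptions, since stretches share gene density, mappability and library. Med26 was in 1626 stretches and Cdk8 in 1943, with 1414 in common, 212 with Med26 alone and 529 with Cdk8 alone.

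The fullest Cdk8 stretches were not among the fullest for Med26. Occupied stretches held a median of 6 Med26 windows and 3 Cdk8 windows. The stretches are named here from general knowledge of the genome build, not from an annotation. The major histone gene cluster on chromosome 13 from 23 to 24 Mb held 184 Cdk8 and 20 Med26 windows. The minor histone cluster with tRNA genes, from 21 to 22 Mb, held 175 and 19, and the megabase between them 96 and 2. The stretch of the ribosomal RNA locus on chromosome 17 from 39 to 40 Mb had 112 and 16, chromosome 11 from 68 to 69 Mb had 109 and 26, and chromosome 3 from 96 to 97 Mb, with the Hist2 genes, had 69 and 20. These 6 stretches held 7.48% of Cdk8 windows and 0.662% of Med26 windows. The 6 fullest Med26 stretches were others, led by chromosome 4 from 116 to 117 Mb with 66 Med26 and 16 Cdk8 windows, and held 2.25% of Med26 and 0.894% of Cdk8 windows. At the stretch of the long noncoding RNAs Malat1 and Neat1 (chromosome 19 from 5 to 6 Mb) there were 48 Med26 and 29 Cdk8 windows. The stretches of the Hox clusters, genes that pattern the embryo, had 14 Med26 windows and 1 Cdk8 window at Hoxa, 9 and 8 at Hoxb, 14 and 20 at Hoxc, and 1 and 4 at Hoxd, with no common direction.

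**Figure D5:**
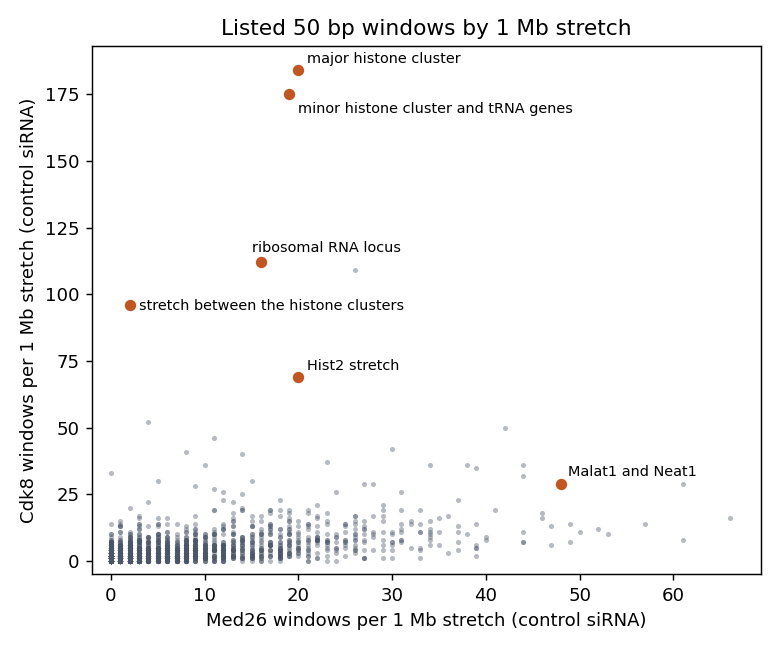
Listed windows per stretch of 1 Mb, Med26 on the x axis and Cdk8 on the y axis, 1 point per stretch, with named stretches in colour. The histone, tRNA and ribosomal RNA stretches lie high on the Cdk8 axis (69 to 184 windows, the stretch between the clusters with 96) at 2 to 20 Med26 windows.

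On the 3 neighbouring stretches of chromosome 13 the factors did not overlap. Over the whole lists only 2.76% of Cdk8 and 2.59% of Med26 regions overlapped the other factor. For Cdk8 regions without control Pol II the share was 0.0906%. With so few regions, the absence of overlap does not set these stretches apart from the whole lists. In the major histone cluster none of 37 Cdk8 regions overlapped any of 11 Med26 regions, 30 of the 37 were in the highest Cdk8 decile and 33 were listed again under Cbx3 siRNA. Control Pol II was on 2 of these 37 Cdk8 regions and on 10 of the 11 Med26 regions. In the minor cluster with tRNA genes, none of 35 Cdk8 regions had Pol II and 30 were listed again, while 6 of 7 Med26 regions had Pol II. The megabase between them had 25 Cdk8 regions, none with Pol II, and 1 Med26 region, which had it. Control Pol II was nonetheless plentiful here. The major cluster held 598 Pol II windows, the highest count of any stretch, the minor cluster 286 and the megabase between them 110. The median over stretches with Pol II was 37.5. The other named stretches differed, with 2 of 17 Cdk8 regions overlapping Med26 at Hist2 and all 4 Med26 regions overlapping Cdk8 at the ribosomal RNA locus. Over all 6 stretches 7 of 43 Med26 regions and 5 of 133 Cdk8 regions overlapped the other factor. As background, tRNA genes are transcribed by RNA polymerase III, for which no library was analysed here.

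Chromosome 13 as a whole held 88 of the 558 strongest Cdk8 regions and 19 of the 599 strongest Med26 regions. It also holds the most tRNA genes in RefSeq (GRCm38.p6, used for counts by chromosome only), 105 of 408 nuclear ones. Chromosomes 6 and 11 follow with 53 and 52, and held 31 and 54 of the strongest Cdk8 regions. Chromosome 7, with 10 tRNA genes, held 51, so the order of the chromosomes was not the same in both. Outside the 6 fullest stretches, 219 of the 453 strongest Cdk8 regions had Pol II (48.3%), 22 overlapped Med26 (4.86%) and 133 had it within 1 kb (29.4%). Inside them, 6 of 105 had Pol II, 4 overlapped Med26 and 104 were listed again.

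The strongest shared regions came first from the ribosomal RNA stretch. The 3 highest Med26 regions of the genome, on chromosome 17 from 39980251 to 39980550, 39982701 to 39983000 and 39980901 to 39981050 (mm9), all lay in a single Cdk8 region from 39979951 to 39983700, the fifth by Cdk8 signal. Med26 at 39984751 to 39984800, of rank 16, lay in the highest Cdk8 region, from 39984051 to 39985850. Each of the first 3 had all other libraries within 2 kb, so these regions are not particular to Med26 or Cdk8. On chromosome 11 from 3093151 to 3093300, Med26 had rank 6 and Cdk8 rank 18, and both Cbx3 sets overlapped it. The other 5 of the 10 with the lowest summed ranks had Pol II. On chromosome 9 from 44689201 to 44689700 Med26 (rank 4) was listed over 500 bp and Cdk8 (rank 800) over 100 bp within it. All the other libraries had a region within 2 kb of it, so it too is not particular to Med26 or Cdk8. On chromosome 12 from 103151151 to 103151450 both summits were the same window, with Med26 at rank 142 and Cdk8 at rank 624, and no Cbx3 overlapped. Of the 10 shared regions, 8 overlapped control Pol II and 7 both Cbx3 sets.

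Med26 alone was strongest at regions with Pol II. The first, on chromosome 6 from 134517201 to 134517550, had a signal of 79.9 over 350 bp and its nearest Cdk8 region was 38601 bp away. Chromosome 1 from 192886551 to 192886900 and chromosome 7 from 104548501 to 104548900 followed, with signals of 67.2 and 60.2. The 10 highest Med26-only regions were 250 to 550 bp long. All 10 overlapped control Pol II and Med26 of the Cbx3 siRNA arm, and none overlapped Cdk8 of that arm or both Cbx3 sets. Of all 5835 Med26-only regions, just 2.57% overlapped Cdk8 of that arm and 2.74% both Cbx3 sets, so none of 10 is near these shares. Among Med26-only regions of the highest decile, 97.8% overlapped control Pol II and 37.8% Med26 of the Cbx3 siRNA arm. One of them, on chromosome 10 from 80217951 to 80218250, adjoined a Cdk8 region without sharing a base.

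The strongest Cdk8-only regions did not overlap control Pol II, and most overlapped both Cbx3 sets. The first, on chromosome 9 from 35112801 to 35113100, had a signal of 377.1 and lay 37501 bp from Med26. The next, on chromosome 2 from 98502451 to 98503050 and from 98506451 to 98507450, had signals of 339.4 and 302.7 with Med26 3015601 and 3011201 bp away. The 10 highest Cdk8-only regions held 50 to 1000 listed bp. Those on chromosome 9 from 3025501 to 3025550 and from 3026601 to 3026650 were single windows, with signals of 173.2 and 91.9. None of the 10 overlapped control Pol II, 8 were listed again under Cbx3 siRNA and 8 overlapped both Cbx3 sets. Among Cdk8-only regions of the highest decile, 37.8% overlapped control Pol II and 81.6% were listed again. Untreated Pol II overlapped 3 of the 10, and the region on chromosome 6 from 124778851 to 124779300 adjoined control Pol II. The inputs were not used, and the part of signal common to several antibodies in these 10 was not tested. Of the 333 Cdk8 regions of the highest decile that did not overlap control Pol II, 47 overlapped both Cbx3 sets (14.1%). This compares with 14 of the 225 that overlapped control Pol II (6.22%) and 208 of all 5574 Cdk8 regions (3.73%). Set 1 by itself did not show this contrast. It overlapped 112 of the 333 and 81 of the 225, so its share was not higher without Pol II. Set 2 by itself overlapped 56 of the 333 (16.8%) and 20 of the 225 (8.89%). No intervals were computed for these shares.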

How the data were processed

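Med26 and Cdk8 ChIP-seq lists of control siRNA cells were compared, with the lists of the other 7 ChIP libraries as further readouts; the 7 inputs were not used. The deposited files give the authors' signal for each 50 bp window. Bowtie and mm9 are named in the submitters' processing notes. Not given in the sources used here are the window test, its threshold, the read extension and how inputs entered. Values were whole multiples of a step of 0.0192 (Med26) or 0.0282 (Cdk8), so signal was ranked within a file only. Such lists do not give total depth.

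Windows up to 200 bp apart were merged, regions ranked by their highest window, and distances counted from 1 bp for adjoining regions. Shares carry exact (Clopper-Pearson) 95% intervals for counting error; neighbouring windows share reads. No test was possible with 1 library per factor. The regions named were the 10 shared ones with the lowest summed ranks, the 10 strongest factor-only ones of each factor and the 6 fullest stretches of 1 Mb. Comparisons with genes and promoters were not run, because the gene table is of another build. The members and lists were chosen with earlier results of these data known. Merging, overlap and distances were checked on simulated data (5000 regions, 5 of 5 checks recovered). Tools were Python 3.11.15, scipy 1.17.1, pandas 2.3.3, numpy 2.4.6 and, for plots, matplotlib 3.10.9.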

Additional observations from a re-analysis of the deposited data

How the results depend on the processing

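Of 68 alternative values, 41 moved by less than the counting interval and 27 moved by more. Each value is a single share, which has no direction that could change. The cause of the moves was not tested, beyond the smaller or rebuilt lists themselves. Merging up to 1 kb gave overlaps of 4.07% (Med26) and 3.98% (Cdk8), 9.02 and 8.82% at 1 bp to 1 kb, and 32.7% single-window Med26 regions. With deciles 6 to 10 of both lists alone, overlaps were 3.17 and 3.37%, regions at 1 bp to 1 kb 8.68 and 8.83%, within 10 kb 16.4 and 17.3%, and Pol II was on 92.5% of Med26-only and 29.1% of Cdk8-only regions. With regions of 2 or more windows, 4.26% of Cdk8 regions overlapped Med26, 6.32% of Med26 regions had Cdk8 at 1 bp to 1 kb, 12.1 and 21.03% were within 10 kb, and Pol II was on 86.7 and 32.6% of factor-only regions. With Cdk8 regions listed under both siRNAs alone, chosen after seeing the data, overlaps were 0.618 and 5.53%, regions at 1 bp to 1 kb 2.54 and 21.8%, and within 10 kb 4.46 and 38.2%. Without the ribosomal RNA stretch the 6 fullest stretches held 6.96% of Cdk8 windows, and with stretches moved by 0.5 Mb 2.01% of Med26 windows. No paired analysis was possible because each factor had 1 library, and leaving out a replicate was not possible. Few reads per listed window limit the weaker Cdk8 regions.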
